A study of Mus musculus with 4 samples.

Results

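The promoters described here carried a strong ATAC-seq peak in both activin libraries of LβT2 cells and in neither vehicle library. ATAC-seq uses a transposase to insert sequencing adapters into open DNA, so that reads pile up where chromatin is accessible. LβT2, written LbT2 or LβT2b in the labels, is an established mouse cell line that resembles the gonadotrope, the pituitary cell secreting luteinizing hormone and follicle-stimulating hormone. The labels name no engineered allele. The cells were kept overnight without serum and then received vehicle or 1 nM activin A for 6 h, with 2 libraries per group. Nothing in the labels says whether the libraries came from separate cultures, and all of them came from 1 line. A peak was called strong when the −log10 of its q-value, as deposited by the authors, was 5 or more. Strong peaks of the 4 libraries that overlapped by at least 1 bp were merged into 21240 regions, of which 8206 were promoters, meaning that their strongest peak was annotated at a transcription start site. Strong peaks in both activin libraries and in neither vehicle library were found at 585 of these promoters, which belonged to 579 genes, and 7.13% of all strong promoter regions met that rule. The q-values of the activin and vehicle libraries chose the 585 promoters, so every difference between the groups below is a description without a test.

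Activin is a dimeric ligand of the transforming growth factor β family. It binds a receptor pair whose kinases phosphorylate SMAD2 and SMAD3, and these enter the nucleus with SMAD4 and act with partner factors on target genes. In gonadotropes it is known for raising transcription of Fshb, which encodes the β subunit of follicle-stimulating hormone. Open promoters carry a nucleosome-poor stretch just before the start site, where general factors such as Sp1 (GGGCGG), nuclear factor Y (CCAAT), ETS proteins (CCGGAAG) and NRF1 (a GC-rich palindrome) are known to bind.

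The promoters of 5 of the 7 genes with the widest separation in −log10 q between activin and vehicle are shown. That is the value the rule itself uses, and read density, given below, did not separate the groups at each of them. The other 2 of the 7 are Nuak2 and Eya1, which are not printed. Each is the run of 250 bases before the RefSeq start site in build GRCm38.p6, read 5′ to 3′ on the gene's own strand, and its start site lay inside the merged region. Capitals mark matches, on either strand, to any of 14 searched motifs.

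Haghl: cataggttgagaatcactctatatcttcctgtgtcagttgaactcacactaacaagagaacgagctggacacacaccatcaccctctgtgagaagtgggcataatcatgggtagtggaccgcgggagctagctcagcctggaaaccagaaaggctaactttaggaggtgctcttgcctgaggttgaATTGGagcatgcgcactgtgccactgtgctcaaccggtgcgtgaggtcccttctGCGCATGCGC

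Tomm22: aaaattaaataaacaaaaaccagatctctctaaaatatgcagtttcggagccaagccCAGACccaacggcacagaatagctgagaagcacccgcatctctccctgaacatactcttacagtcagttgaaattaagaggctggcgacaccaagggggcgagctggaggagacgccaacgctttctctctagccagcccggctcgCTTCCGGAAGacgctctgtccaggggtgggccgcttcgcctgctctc

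Mocs2: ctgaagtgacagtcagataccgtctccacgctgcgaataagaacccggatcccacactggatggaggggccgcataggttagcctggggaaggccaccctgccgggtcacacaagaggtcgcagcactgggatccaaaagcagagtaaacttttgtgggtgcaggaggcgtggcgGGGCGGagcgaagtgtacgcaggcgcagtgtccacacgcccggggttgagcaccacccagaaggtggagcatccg

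Fancg: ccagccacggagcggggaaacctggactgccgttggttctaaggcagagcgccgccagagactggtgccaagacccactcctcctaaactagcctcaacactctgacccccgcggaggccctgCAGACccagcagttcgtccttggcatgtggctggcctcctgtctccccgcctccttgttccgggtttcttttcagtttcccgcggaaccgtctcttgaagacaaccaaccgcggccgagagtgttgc

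Pgbd1: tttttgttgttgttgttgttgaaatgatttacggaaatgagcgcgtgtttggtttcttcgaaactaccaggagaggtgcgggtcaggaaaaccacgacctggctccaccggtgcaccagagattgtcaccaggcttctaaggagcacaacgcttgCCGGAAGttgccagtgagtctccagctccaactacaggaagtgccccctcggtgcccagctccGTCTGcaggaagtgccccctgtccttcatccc

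The Haghl sequence is chr17:25785581-25785830 on the minus strand. The Tomm22 sequence is chr15:79670618-79670867 on the plus strand. The Mocs2 sequence is chr13:114817987-114818236 on the plus strand. The Fancg sequence is chr4:43010302-43010551 on the minus strand, and the Pgbd1 sequence is chr13:21441054-21441303 on the minus strand. Haghl held 1 CCAAT match and 1 NRF1 palindrome, which ended at the last base before the start site. Tomm22 held 2 overlapping CCGGAAG matches, 1 on each strand, and Pgbd1 held 1. CAGAC, the short element that SMAD proteins are known to bind, was present in Tomm22, Fancg and Pgbd1. Mocs2 held 1 GGGCGG match. Of all RefSeq mouse promoter windows of this length in the table, 42.2% held CAGAC, 33.8% CCAAT, 32.7% GGGCGG, 6.91% CCGGAAG and 3.74% the NRF1 palindrome. The other motifs searched were the SMAD palindrome GTCTAGAC, the GC-rich SMAD element GGCGCC, the AP-1 site TGANTCA, the cyclic AMP response element TGACGTCA, the E-box CACGTG, the extended YY1 motif, the SF-1 site TCAAGGTCA, the FOXH1 site AATNCACA and the TATA box TATAAA. None of these letters stood in the 5 windows. A promoter sequence was matched by gene symbol for 410 of the 585 promoters (70.1%). Under 80% had a value, so a comparison of base composition or motifs between these promoters and others is void and is not given.

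The libraries held between 172146474 and 224226184 high-quality autosomal reads, and the deepest and the shallowest were activin 1 and vehicle 1. Reads were enriched at start sites by a factor of 2.72 and 2.48 with vehicle against 3.12 and 3.04 with activin. Strong peaks numbered 12377 and 12760 with vehicle against 19819 and 15807 with activin. Mitochondrial reads made up 0.840% and 0.765% with vehicle and 1.52% and 1.23% with activin. The short-fragment to mononucleosome ratio stood at 2.95 and 3.07 with vehicle against 3.48 and 3.49 with activin. Start-site enrichment, the number of strong peaks, the mitochondrial share and the fragment ratio each separated the groups, and their part in the results below was not tested. Of 10 gonadotrope markers, 4 had a strong promoter peak in all 4 libraries (Lhb, Cga, Gnrhr and Egr1) and 3 in none (Fshb, Nr5a1 and Pitx1). Of 15 markers of other pituitary, connective tissue, vessel and immune cells, 14 had a strong promoter peak in no library and none had one in all 4.

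Promoters strong in exactly the activin pair far outnumbered those strong in any other pair of libraries. The pair of vehicle libraries alone gave 1 promoter (0.0122% of strong promoter regions), in the gene Fam73a. The 4 pairs that mix a vehicle with an activin library gave 79, 5, 32 and 2 promoters. A further 736 promoters were strong in both activin libraries and 1 vehicle library, and 6042 were strong in all 4 libraries. Over merged regions of every annotation, 2539 of 21240 (12%) were strong only with activin. The count depended on using the same q-value threshold in libraries with different numbers of strong peaks. With the 12377 strongest peaks of each library in its place, 111 promoters were strong only in the activin pair, against 44 only in the vehicle pair and 37 to 96 in the mixed pairs. With the 6309 strongest promoter peaks of each library, an alternative added after the data were seen, the activin pair gave 173 promoters. The vehicle pair gave 187, and the mixed pairs 122 to 138. Equal numbers of promoter peaks largely fix the balance between the groups in advance, so this near parity cannot show any gain shared by promoters. Of the 585 promoters, 102 were among the 111 and 49 among the 173. Dropping 1 library removes its condition and so loosens the rule. The count was then 644 without activin 1, 1196 without activin 2, 1050 without vehicle 1 and 860 without vehicle 2.

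**Figure D1:**
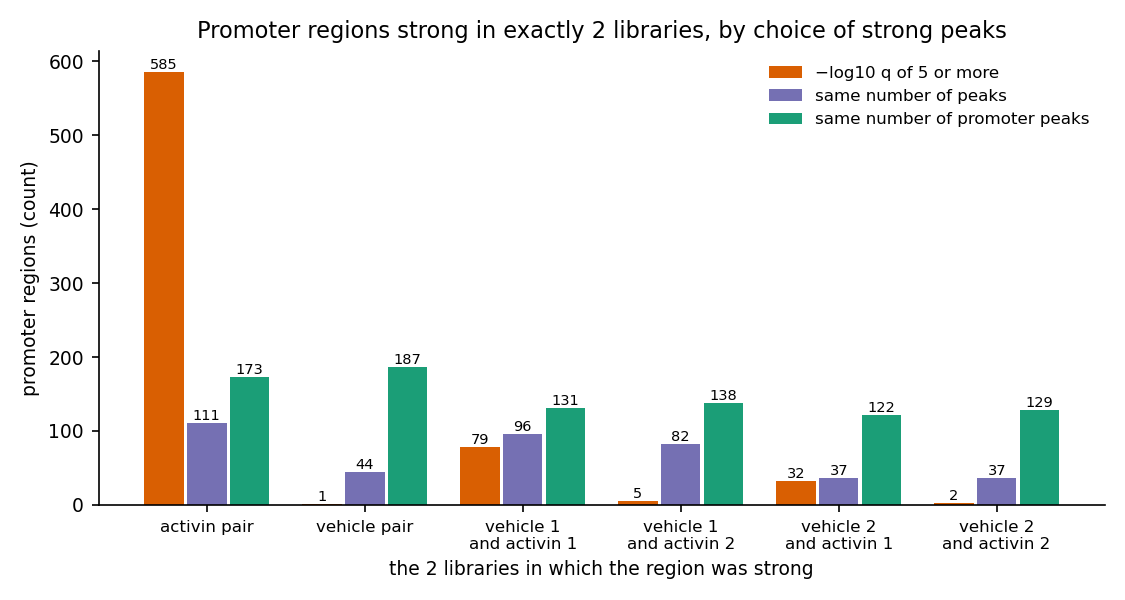
Promoter regions strong in exactly 2 libraries, in counts, for each of the 6 pairs of libraries. Bars give strong peaks chosen by −log10 q of 5 or more, by the same number of peaks per library (12377) and by the same number of promoter peaks per library (6309). The activin pair stands at 585 by q-value, and at 173 beside 187 for the vehicle pair with equal numbers of promoter peaks. That last setting itself brings the groups near balance.

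Nearly all of the 585 promoters were already called as weaker peaks in vehicle-treated cells. Both vehicle libraries had a peak under 563 of them, or 96.2%, a share that carries no measure of spread between libraries or cultures. Of the 736 promoters strong with activin and in 1 vehicle library, 732 had a peak in all 4 libraries. That class supplies 1 of the vehicle peaks by its definition. Peaks of any strength numbered 83344 in vehicle 1, 178358 in vehicle 2, 85112 in activin 1 and 70692 in activin 2, so vehicle 2 listed by far the most, and the part of this in the overlap was not tested; 570 of the 585 had a peak in vehicle 1 and 577 in vehicle 2. A further 21 had a peak in 1 vehicle library, 7 in vehicle 1 and 14 in vehicle 2, and 1 had none. The vehicle peaks covered a median of 73.7% of the merged region in vehicle 1 and 76.9% in vehicle 2. They were themselves annotated as promoter in 518 of 570 cases (90.9%) in vehicle 1 and in 519 of 577 (89.9%) in vehicle 2. The weaker vehicle peaks were thus promoter peaks too in most cases, but their assigned start sites were not compared with those of the activin peaks. Both vehicle libraries had a peak over at least 50% of the region at 73.5% of the 585.

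Most vehicle peaks stood not far under the threshold. The median −log10 q over these promoters was 3.81 in vehicle 1 and 3.63 in vehicle 2, against 8.26 in activin 1 and 6.46 in activin 2. In vehicle 1 the value was between 4 and 5 at 242 promoters, between 3 and 4 at 199, between 2 and 3 at 100 and between 1 and 2 at 29. In vehicle 2 those numbers were 211, 201, 140 and 25. The higher of the vehicle values was between 4 and 5 at 336 promoters and below 2 at 14. Activin 1, the deeper library, had the higher value of the activin pair at 452 of 585.

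The separation between the groups was small at many promoters and wide at few. The lower activin value exceeded the higher vehicle value by a median of 2.40 units of −log10 q over the 563 promoters with a peak in all 4 libraries (range 0.040 to 7.49). Of the 584 with any vehicle peak, 525 were apart by at least 1 unit, 194 by at least 3 and 44 by at least 5. At 59 promoters the separation was below 1 unit. The lower activin value reached 7 at 191 promoters, 10 at 18 and 15 at none. At the 6042 promoters strong in all 4 libraries the same separation had a median of 2.94, and the activin values exceeded both vehicle values at 4743 of them (78.5%). Without activin 2 the lower activin value is that of activin 1 alone, which cannot narrow the separation, and the median over the 563 was 4.34.

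**Figure D2:**
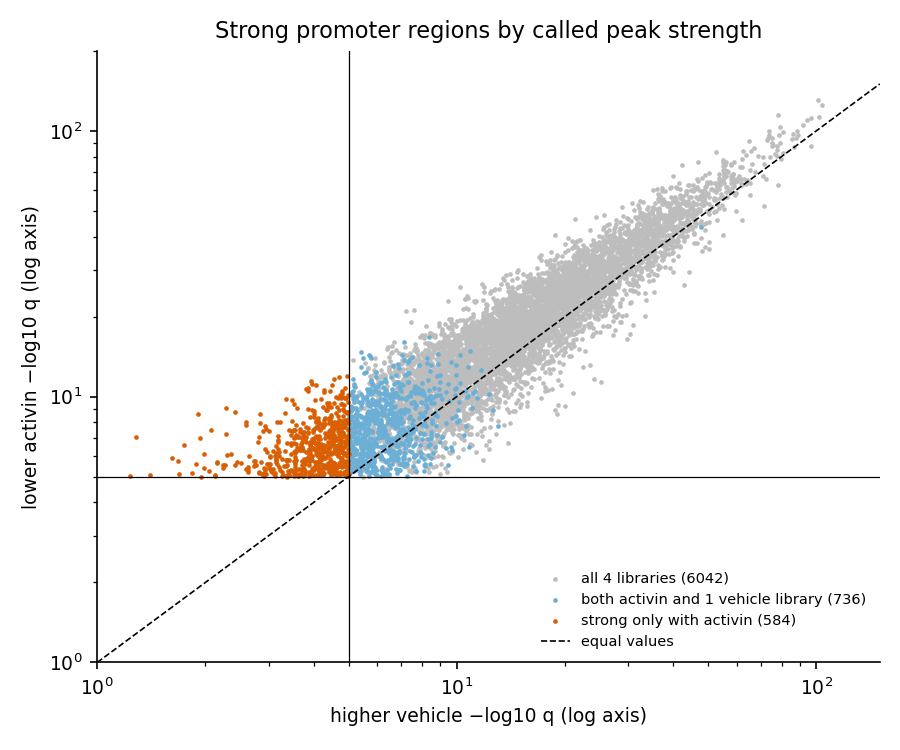
Lower activin against higher vehicle −log10 q, both on log axes, for 584 promoters strong only with activin, 736 strong in both activin and 1 vehicle library and 6042 strong in all 4. Solid lines mark the threshold of 5 and the dashed line equal values; most of the 6042 promoters also lie above the dashed line.

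The threshold split promoters with nearly equal values. Just inside, Crhr1, the receptor for corticotropin-releasing hormone, had −log10 q of 1.95 and 1.56 with vehicle against 5.38 and 5.00 with activin. Rnf114, a ubiquitin ligase gene, had 4.90 and 5.00 with vehicle, the latter just under the threshold before rounding, and 9.26 and 5.10 with activin. Arid3c, Lynx1, Rarg and Plxnb1 were the other promoters closest to a threshold from inside. Just outside, Dnlz had 3.28 and 3.0004 with vehicle against 9.58 and 4.997 with activin. Clec2l had 5.02 and 4.04 with vehicle against 7.13 and 12.3 with activin, and BC039771, Zfp354c, Fam183b and Tmem50a missed by similarly small margins. Dnlz and Clec2l were thus left out although their groups were further apart than those of Rnf114.

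Fold enrichment over the peak caller's background differed less than the q-values. Its median over the 585 promoters was 2.65 and 2.48 with vehicle against 3.17 and 3.21 with activin. The median difference of mean log2 fold, activin minus vehicle, was 0.31. It was 0.25 at the promoters strong with activin and in 1 vehicle library and 0.18 at those strong in all 4. These classes were cut on the q-values of the same peaks, so the order of the 3 values is partly set by the rule. The called peaks were also longer with activin, at medians of 782 and 680 bp against 597 and 630 bp with vehicle. Promoters strong in all 4 libraries, a class that the threshold itself sets higher with vehicle, had median folds of 4.15, 3.75, 4.47 and 4.49.

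Read density in the peaks put the promoters strong only with activin beside all other promoters. Density was the number of high-quality reads in the peak called in that library, per kb of that peak and per 1000000 high-quality autosomal reads. For the log2 differences and the counts of densities above or below, 1 read was first added. The median density was 2.16 and 1.92 with vehicle against 2.45 and 2.40 with activin. Over the 538 autosomal promoters with a peak in all 4 libraries, the log2 difference of activin minus vehicle had a median of 0.27, and 90% of them lay between −0.05 and 0.55. At the promoters strong in all 4 libraries that median was 0.30, and over all 7805 autosomal strong promoters with a peak in every library it was 0.29. Both activin densities exceeded both vehicle densities at 333 of the 538 (61.9%), against 64.6% of the 7805, and both lay below at 3 (0.558%), against 2.08%. The share at these promoters was therefore near that of promoters at large.

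Relative to the shift shared by promoters, the densities showed no common direction. When each library was centred on its median over promoters strong in all 4 libraries, the median difference at the 538 was −0.016. Both centred activin densities lay above both vehicle densities at 89 (16.5%, against 22.1% of the 7805) and below at 97 (18.03%, against 18.4%). Without division by peak length the median difference was 0.49, beside 0.45 at the promoters strong in all 4. The intervals compared were not the same in each library: the part common to the 4 peaks made up a median of 54.6% of their union, against 71.8% at promoters strong in all 4.

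**Figure D3:**
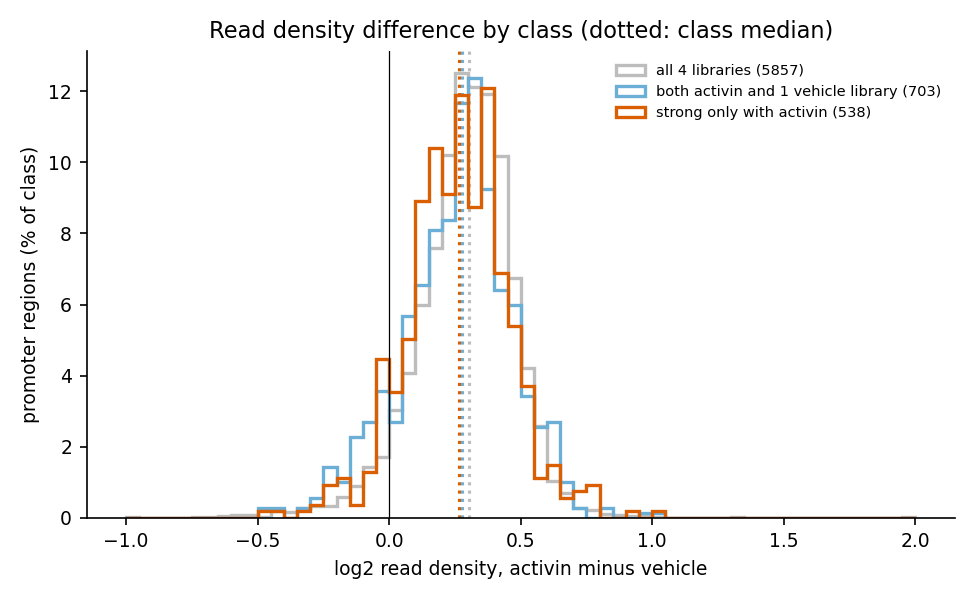
Distribution of the log2 read density difference, activin minus vehicle, in percent of each class of promoters, with dotted lines at the class medians. The 538 promoters strong only with activin have a median of 0.27 and overlie the 703 strong in 1 vehicle library as well and the 5857 strong in all 4, whose medians are 0.28 and 0.30.

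The promoters with the strongest activin peaks belonged to genes of varied function. The highest lower activin value was at Eya1, a transcriptional coactivator with phosphatase activity, in a region at chr1:14304467-14305290 whose centre lay 298 bp upstream of the start site. Its −log10 q was 3.65 and 4.96 with vehicle against 11.9 and 15.7 with activin. Its read density was 1.59 and 1.33 with vehicle against 1.95 and 1.96 with activin. Both measures were higher in each activin library than in either vehicle library, and the log2 density difference was 0.43, or 0.15 after centring. Fancg, a subunit of the Fanconi anaemia core complex of DNA repair (chr4:43009899-43010621), had −log10 q of 4.64, 4.72, 12.7 and 11.9 in vehicle 1, vehicle 2, activin 1 and activin 2. Its densities were 2.79, 2.28, 3.20 and 3.10 in the same order, again without overlap between the groups. The log2 difference was 0.32, but 0.04 after centring, where the groups no longer stood apart. Mocs2, which encodes the subunits of molybdopterin synthase (chr13:114817913-114818889), had −log10 q of 4.50, 4.55, 12.5 and 11.7. Its densities were 1.297, 1.20, 2.05 and 1.80, a log2 difference of 0.61, or 0.33 after centring.

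The widest separations in q-value did not always come with a difference in density. Haghl, related to the glyoxalase II enzyme (chr17:25785158-25785834), had the widest separation, with −log10 q of 3.94 and 2.89 with vehicle against 11.4 and 13.2 with activin. Its densities were 4.67, 3.83, 4.54 and 4.73, which overlapped between the groups. Tomm22, a receptor of the import complex in the outer mitochondrial membrane (chr15:79670353-79671204), had −log10 q of 3.56, 3.97, 11.4 and 11.2. Its densities of 2.52, 2.65, 2.62 and 2.52 did not separate the groups (log2 difference −0.01, and 0.73 without division by peak length). The reads in its peaks numbered 245 and 234 with vehicle against 501 and 332 with activin. At Tomm22 the activin peaks were thus longer rather than denser.

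Metabolic, signalling and transposon-derived genes made up the rest of the 10 highest. Lars2, the mitochondrial leucyl-tRNA synthetase (chr9:123366359-123367150), had −log10 q of 3.81 and 3.65 with vehicle against 10.7 and 12.1 with activin. Its densities were 0.988, 1.02, 1.79 and 2.06, a log2 difference of 0.94, or 0.66 after centring. Phyhip, a partner of phytanoyl-CoA hydroxylase (chr14:70457017-70458607), had −log10 q of 3.33, 4.90, 18.2 and 10.8. Pgbd1, derived from a piggyBac transposase (chr13:21440561-21441446), had 3.86, 2.45, 13.5 and 10.8. Nuak2, a kinase related to AMP-activated kinase, had 2 of the regions. The stronger one, at chr1:132326508-132327917, had −log10 q of 3.88, 4.06, 11.04 and 11.95, and the other, at chr1:132315932-132316412, had 2.31, 4.66, 5.45 and 6.26. Nucb1, a calcium-binding protein of the Golgi (chr7:45509908-45510781), had 4.23, 4.49, 11.1 and 11.5, and the start site of another gene, Tulp2, was the nearest to it. In all 10 of these promoters the activin values stood more than 5 units above the vehicle values.

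**Figure D4:**
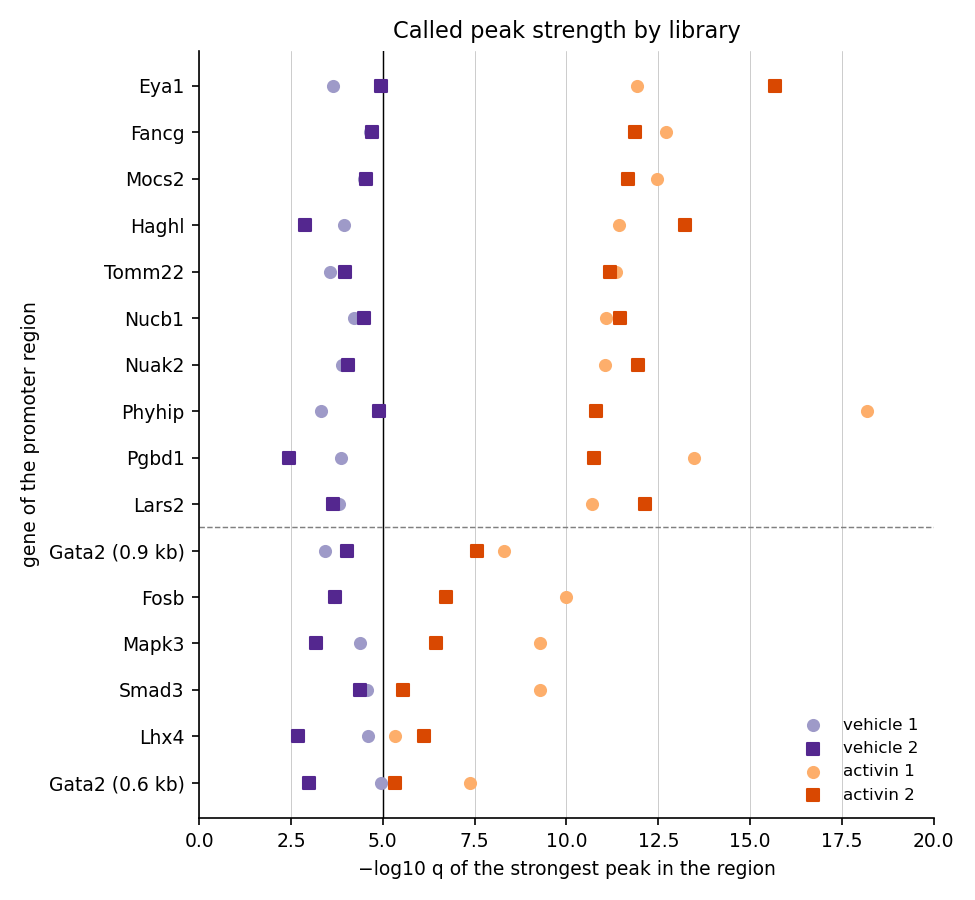
−log10 q of the strongest peak in each library for the 10 promoters with the highest lower activin value (above the dashed line) and for the 6 regions of activin pathway and gonadotrope genes (below it); the vertical line is the threshold of 5, and Gata2 regions are told apart by length. Vehicle and activin points are well apart in the upper rows, whereas at Lhx4 they lie at 4.60 and 5.34.

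Promoters with no called peak in at least 1 vehicle library were few. The promoter without a vehicle peak in either library was Gm37947 (chr15:61983373-61983576), a short region at a gene model that still awaits experimental proof, with −log10 q of 5.44 and 5.63 and 220 and 176 reads in activin 1 and 2. Among the 21 with 1 vehicle peak, Rhcg, an ammonium transporter of epithelia (chr7:79594959-79595224), had no peak in vehicle 1, 2.28 in vehicle 2 and 9.10 and 9.93 with activin. Mttp, the microsomal triglyceride transfer protein (chr3:138144682-138145116), had 1.90 in vehicle 1, no peak in vehicle 2 and 9.87 and 8.63 with activin. The same gene had another promoter region that was strong in all 4 libraries. D7Ertd443e had 1.28 in vehicle 1 and none in vehicle 2, against 8.10 and 7.07 with activin. Nudt12, a nucleotide hydrolase, had 4.18 and no peak with vehicle against 7.65 and 6.94 with activin. Pik3c3, the lipid kinase Vps34 of autophagy, had no peak and 2.35 with vehicle against 6.10 and 7.64 with activin. Sept9, Smim5, Gramd1c and 2 promoters known by Ensembl identifier ranked below Nudt12, with lower activin values no higher than its 6.94. An absent peak means that the caller listed none at −log10 q of 1 or more, not that no reads were there.

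The ends of the density range depended on peak length. Among promoters with a mean of 50 or more reads, Snx22, a sorting nexin, had the largest log2 density difference at 1.02, with densities of 2.26 and 2.33 with vehicle against 3.73 and 5.77 with activin. Without division by length the difference was −0.50, and the vehicle peaks there were longer. Rab26, a GTPase of secretory granules, likewise went from 0.79 to −0.51. Lars2, Setdb1, a histone H3 lysine methyltransferase, and F3, the tissue factor of coagulation, stayed above 0 both ways, at 0.32, 0.41 and 0.44 without division. Efemp2, the matrix protein fibulin-4, had the smallest difference at −0.49, with densities of 2.54 and 4.01 with vehicle against 2.36 and 2.19 with activin. It stood at 1.51 without division, and Klhl17, Gm25396, C330018D20Rik and Tradd also changed sign in this way.

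Most strong promoter regions of activin receptor and SMAD genes were strong in all 4 libraries, as were 73.6% of all strong promoter regions. Of the 22 such genes listed, 17 had a promoter-annotated peak of any strength. Among the receptors and SMADs, 12 of 15 strong promoter regions were strong in all 4 libraries. Only with activin was 1 strong (6.67%, beside 7.13% of all strong promoter regions), in a group too small for a comparison. That region lay inside Smad3, the receptor-activated SMAD (chr9:63666140-63666829), 45493 bp from the start site to which it was assigned. It had −log10 q of 4.56 and 4.39 with vehicle against 9.28 and 5.56 with activin, and its densities of 3.66, 4.93, 4.35 and 3.94 overlapped. Another Smad3 promoter was strong in all 4 libraries, at 23.1, 20.9, 29.0 and 24.8. Neither the 3 strong promoter regions of ligands and antagonists nor the 13 of known SMAD2/3 targets and feedback genes were strong only with activin, and these groups are too small to set against 7.13%. Id1, a SMAD target and inhibitor of basic helix-loop-helix factors, had promoter-annotated peaks of 13.7 and 9.91 with activin and none so annotated with vehicle. Its merged region nonetheless held strong vehicle peaks of other annotation, the higher at 9.77, and so was strong in all 4 libraries. The feedback inhibitor Smad7, for example, had 12.9, 15.2, 28.8 and 18.4, strong in every library.

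Gonadotrope regulators gave 3 of 15 strong promoter regions (20.0%, against 7.13% of all), from 2 genes. This group too is too small for its share to be called different. Of these regions, 2 belonged to Gata2, a zinc-finger transcription factor of gonadotropes and thyrotropes. The region at its start site (chr6:88193395-88194020) had −log10 q of 4.96 and 2.98 with vehicle against 7.38 and 5.33 with activin. The second (chr6:88198055-88198928, 4600 bp from the start site) had 3.42, 4.01, 8.31 and 7.57. The log2 density difference was 0.30 at both, or 0.02 after centring, which is the shift of promoters in general. Lhx4, a LIM homeodomain factor of pituitary development (chr1:155741148-155742997), had 4.60, 2.68, 5.34 and 6.12, and its densities of 3.15, 2.17, 2.46 and 2.97 overlapped. The Lhb, Cga and Gnrhr promoters were strong in every library, and Fshb had no promoter peak in any.

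Partner factors and the kinase arm each gave 1 promoter, or 7.69% and 6.67% of their strong promoter regions, beside 7.13% of all. Both groups are too small for a comparison. Fosb, an AP-1 subunit (chr7:19310005-19310566), was 1 of 13 strong promoter regions of SMAD partners and coactivators. It had −log10 q of 3.67 and 3.70 with vehicle against 9.99 and 6.72 with activin. Its densities of 3.05, 2.67, 3.83 and 3.62 did not overlap between the groups, and the log2 difference was 0.38, or 0.10 after centring. Mapk3, the kinase ERK1 (chr7:126759221-126759770), was 1 of 15 in the mitogen-activated kinase group, at 4.38, 3.17, 9.29 and 6.45. Its densities of 2.60, 3.80, 4.58 and 3.19 overlapped. Myc, a growth-promoting transcription factor outside the listed groups and named after its values were seen, had 4.43, 4.51, 7.79 and 6.75.

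Across 17 groups of genes defined by their symbols, the share of promoters strong only with activin mostly lay near the 7.13% of all strong promoter regions. Zinc finger proteins gave 16 of 236 (6.78%), for example Zfp768 and Zfp825, and ubiquitin enzymes and ligase subunits 13 of 199 (6.53%), for example Ube2g2 and Rnf25. RNA splicing and processing gave 8 of 116 (6.90%), with Dhx40 and the X-linked helicase gene Ddx3x, and membrane trafficking 9 of 160 (5.62%), with Stx1a and Arl4d. Centrosome, cilium and kinesin genes gave 10 of 133 (7.52%), solute carriers 6 of 107 (5.61%) and transmembrane proteins of the Tmem series 6 of 101 (5.94%). Polymerase, mediator and general transcription factors gave 5 of 66 (7.58%), including Taf12 and Gtf3c3, and chromatin regulators 4 of 76 (5.26%), including Setdb1 and Hdac8. Small RNA genes and unnamed gene models gave 58 of 745 (7.79%). These shares differ from that of all promoters by no more than 2 percentage points.

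Among the remaining symbol-defined groups the share ran from none to 15.3%, with few such promoters in each. The symbol pattern for cytosolic ribosomal proteins matched 9 of 59 strong promoter regions (15.3%). Of these 9, Rps26, Rps18, Rps9, Rpl29 and Rpl37a encode ribosomal proteins and Rpl7l1 a related protein. Rps6ka1 and Rps6ka4 are signalling kinases and Rpl5-ps2 is a pseudogene, so they are not subunits of the ribosome. Rps26 (chr10:128626040-128626943) had −log10 q of 4.97, 3.19, 14.5 and 9.50, but overlapping densities of 1.90, 1.45, 1.96 and 1.67. Translation initiation factors and tRNA ligases gave 5 of 55 (9.09%), including Lars2 and Eif3b, and mitochondrial ribosomal proteins 4 of 47 (8.51%), including Mrpl2 and Mrpl37. Oxidative phosphorylation gave 2 of 63 (3.17%), Ndufs3 and Uqcr11, and cell cycle genes 1 of 61, Cdc14b. The 30 proteasome and the 16 histone promoter regions gave none. With so few promoters per group and no test, none of these shares is called different from the rest.

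**Figure D5:**
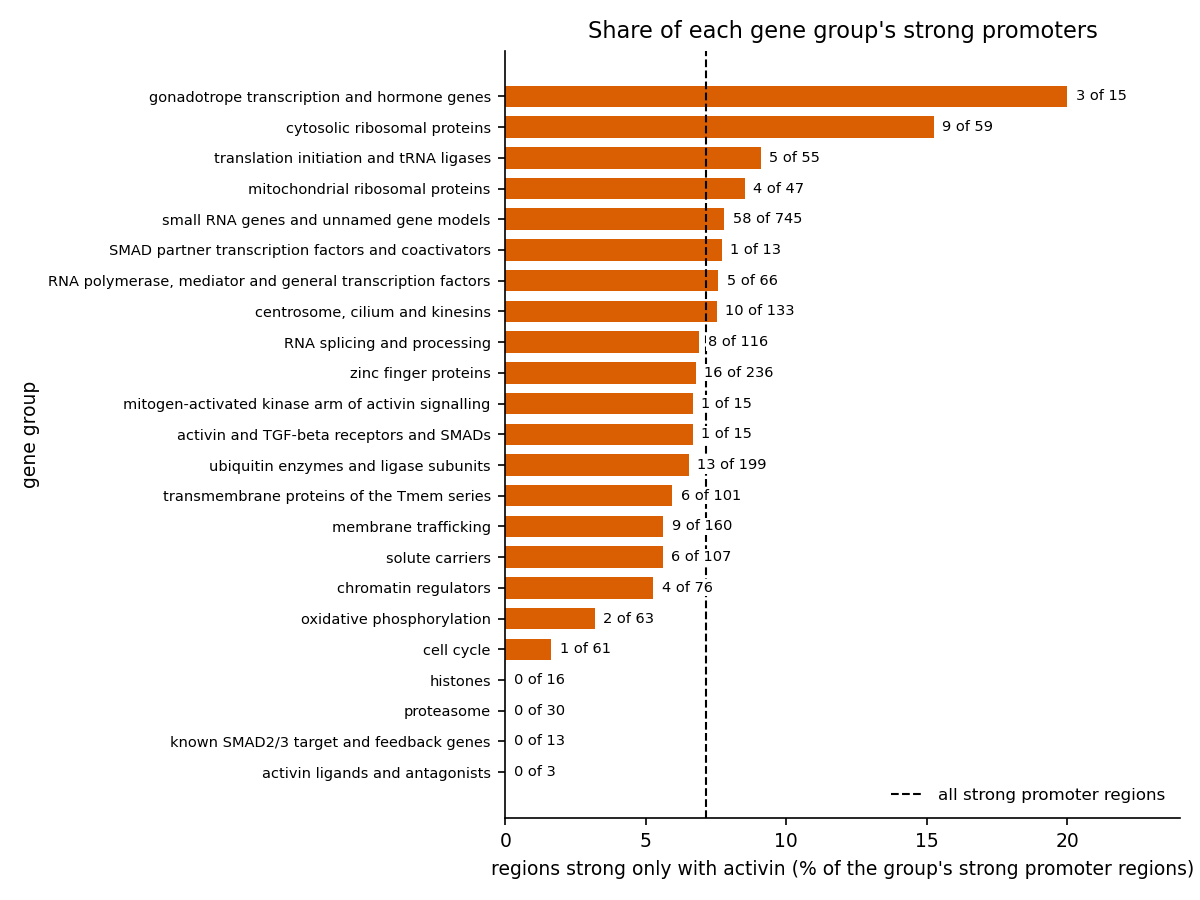
Percent of the strong promoter regions in each of the 6 listed and 17 symbol-defined gene groups that were strong only with activin, with the counts beside the bars and a dashed line at 7.13% for all strong promoter regions. Most bars end near the line; the highest among these groups are 3 of 15 for gonadotrope genes and 9 of 59 for symbols of cytosolic ribosomal proteins.

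The promoters lay about as close to start sites as those strong in all 4 libraries. The median distance from the peak centre to the assigned start site was 207 bp, against 184 bp, and 207 of 585 (35.4%) lay within 100 bp, against 36.4%. The nearest gene was protein-coding at 457 (78.1%, against 82.1%). Antisense transcripts accounted for 32, long intergenic RNAs for 19 and microRNA genes for 14 of the others. Of the 585, 558 were autosomal, as were 5857 of the 6042 strong in all 4 libraries, and 27 lay on the X chromosome. Chromosomes 4, 5 and 11 held 52, 45 and 44. No share over all strong promoter regions was computed for single chromosomes or for these RNA types. Their counts therefore show no concentration. The annotated gene differed from the gene with the nearest start site at 146 promoters, so a gene name there marks a region shared by neighbours.

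Some of the genes also had a promoter that was open in every library. Another promoter of the same gene was strong in all 4 libraries for 34 of 585 (5.81%), Smad3, Eya1 and Mttp among them. That share was 5.84% at the promoters strong with activin and in 1 vehicle library, and 3.18% at those strong in all 4. It was thus not particular to the promoters strong only with activin. A region strong in all 4 libraries lay within 5 kb of 62 (10.6%, against 6.66% and 6.24% in those classes). It lay within 1 kb of 12 (2.05%, against 0.815% and 0.877%). Repeated genes were Nuak2, Gata2, Rab13, Acyp1 and Plec, a cytoskeletal linker with 3 regions between chr15:76197972-76200139 and chr15:76228992-76230026. The 3 Plec regions had −log10 q between 2.86 and 4.89 with vehicle and between 6.10 and 9.24 with activin. Their log2 density differences were 0.24, 0.12 and 0.08, all below the 0.29 of strong promoters as a whole.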

How the data were processed

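ATAC-seq was done on LβT2 cells (LbT2 or LβT2b in the labels), 350000 per well and 50000 per reaction, per the labels, and the submitters' processing notes name Bowtie2, MACS2, HOMER and GRCm38/mm10 without versions or settings. The authors deposited, for each library, broad peaks called on that library alone, with a whole-number score, a fold enrichment ratio and the −log10 p and −log10 q of each peak, per the file layout. In nearly all peaks the score was 10 times the −log10 q, cut to a whole number. The authors also deposited HOMER annotations and, per the file headers, an ataqv 1.3.1 report with read counts per autosomal peak, so X-linked promoters have no density. A read density is not a count over one fixed interval.

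From these, strong peaks (−log10 q of 5 or more, overlap of 1 bp) were merged, and the strongest peak per library in a region gave its values, with Python 3.11.15, pandas 2.3.3 and numpy 2.4.6. The merging and classes were tested on simulated peaks. Groups came from sample titles. No test was made: the rule uses the contrast itself, and a two-sided exact permutation of 2 against 2 libraries cannot go below 0.333. The promoters and gene groups were chosen with earlier results of these data known. Named promoters were the 10 highest by lower activin value and by separation, up to 10 without a vehicle peak, the 5 at each end of the density difference, those next to a threshold, those in 6 listed groups and up to 2 per symbol group. Gene names came from the files for 558 promoters, and 27 are known by identifier only. Sequences are from RefSeq (GRCm38.p6). Alternatives covered thresholds, equal numbers of peaks, overlap, annotation, scaling and left-out libraries.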

Additional observations from a re-analysis of the deposited data

How the results depend on the processing

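The number of promoters strong only with activin was 910 at a −log10 q threshold of 10, 111 with equal numbers of strongest peaks and 173 with equal numbers of strongest promoter peaks, and it lay between 393 and 737 under the 5 other settings with both libraries of each group. At thresholds of 3, 7 and 10 these were largely other promoters. Of the 585, 67 overlapped the 393 at 3, 191 the 737 at 7 and 18 the 910 at 10. At a threshold of 4, 249 of the 585 overlapped the 483. Leaving out 1 library, which loosens the rule, gave 644 to 1196. The share with a peak in both vehicle libraries was 76.8%, 90.5%, 99.3% and 100% at thresholds of 3, 4, 7 and 10, 73.5% when the vehicle peak had to cover 50% of the region, 89.4% for vehicle peaks of at least 2, and 97.4% to 98.6% with 1 vehicle library. The median separation was 0.18 on log2 fold and 2.58 to 4.34 with 1 library left out, a setting that cannot lower it. The median log2 density difference was 0.49 without division by length, −0.016 after centring and 0.20 to 0.35 with 1 library left out. The promoters with both activin densities above both vehicle densities numbered 89 after centring. Apart from the construction of each setting, the cause was not tested. Of 26 named density differences, 9 changed sign without division by length, 3 after centring and 0 with 10 reads added. The sequence alternative was not run because the sequence comparison is void. No paired analysis was possible because the results come from no test into which a replicate block could enter. The lists end at −log10 q of 1, so weaker vehicle signal is not seen.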

Other observations

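Some ion channel and vesicle release genes had promoters strong only with activin. They were picked after the values were seen and so are given as values alone. The channel genes included Kcnn3, Scn2a1, Asic1, Kcnd2 and Orai2. Kcnn3, a calcium-activated potassium channel, had −log10 q of 4.65 and 4.84 with vehicle against 14.6 and 9.30 with activin. Scn2a1, a voltage-gated sodium channel, had 4.11, 3.85, 8.27 and 14.7. Their log2 density differences were 0.38 and −0.04, or 0.10 and −0.32 after centring. The vesicle release genes were Stx1a, Syt3, Syt5, Rab27a, Rab26 and Stxbp2. Rab27a, a GTPase of secretory granules, had 3.11 and 4.04 with vehicle against 12.2 and 6.28 with activin.

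Genes of ribosome assembly with promoters strong only with activin were also picked with the members in view, so no share is given. They were Utp14a, Krr1, Sdad1, Nsa2, Ddx27, Npm3, Polr1e, Nol10, Lsg1, Mdn1, Cirh1a, Mak16, Polr1a, Utp20 and Rpf2. Krr1, a processing factor of the small subunit, had −log10 q of 4.55 and 3.29 with vehicle against 18.2 and 7.81 with activin. Rpf2, a factor of the large subunit, had 1.37 and 1.41 with vehicle against 6.83 and 5.09 with activin, but a log2 density difference of −0.16. Polr1a, the largest subunit of RNA polymerase I, had a density difference of 0.66, or 0.38 after centring.

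Of the 49 promoters strong only with activin that also held under both equal-number settings, 48 had a read density in each library. Both centred activin densities exceeded both vehicle densities at 15 of the 48, Eya1, Mocs2, Nuak2, Phyhip, Lars2, Nicn1 and Slc1a5 among them. That share cannot be set against the 22.1% of 7805 strong promoters as a result, since the same contrast chose the 49. The median centred log2 difference of the 48 was 0.09.

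Fam73a, the gene of the promoter that was strong only in the vehicle pair (chr3:152285386-152285594, −log10 q 7.08, 5.61, 4.65 and 1.77), also had a promoter strong only with activin (chr3:152339857-152340603), at 1.98, 1.45, 6.10 and 6.14.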
